A study of Mus musculus with 8 samples.

Results

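The 10 fibrillar collagen genes examined here were Col1a1, Col1a2, Col2a1, Col3a1, Col5a1, Col5a2, Col5a3, Col11a1, Col11a2 and Col27a1, and they were found by their symbols among the 55471 genes of the count table, with 1 row for each symbol. RNA was sequenced from SV-LECs (svLEC), a mouse lymphatic endothelial line derived from the mesenteric adventitia and immortalized with SV40, which is a single line with the immortalizing genes present in both groups. The cells were nontreated or received TGFβ1 at 10 ng/ml, and the treatment lasted 72 h, with 4 libraries in each group. The study's methods call the 4 samples of a group technical replicates, so every error and p-value below refers to the spread between libraries and not to independent experiments. Total counts were between 18952504 and 26386941 per library.

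Collagen fibrils are built from triple helices of 3 chains, in which glycine recurs along the helix. Type I collagen is the main fibril-forming protein of most connective tissue and normally combines Col1a1 and Col1a2 chains, with Col1a1 chains in excess. Type III is made of Col3a1 chains alone and is abundant in vessel walls and other distensible tissue. Types V and XI are minor components that start fibrils and limit their diameter, and their chains can also combine with each other. Type II is the main collagen of cartilage, and type XXVII is a minor fibrillar collagen of cartilage and developing tissue. By sequence relationship the family falls into 3 clades: Col1a1, Col1a2, Col2a1, Col3a1 and Col5a2 belong to clade A, Col5a1, Col5a3, Col11a1 and Col11a2 to clade B, and Col27a1 to clade C.

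TGFβ1-treated SV-LECs had higher levels of 7 of the 10 genes and lower levels of 2. Col11a1 rose 15.5-fold and Col2a1 19.1-fold by the ratio of mean CPM (counts scaled to a common library size), the latter from 3 to 9 counts per untreated library. Col27a1, Col5a3, Col11a2, Col5a1 and Col1a1 rose 3.74-fold, 3.47-fold, 2.01-fold, 1.78-fold and 1.75-fold. Col3a1 fell 1.89-fold and Col5a2 fell 1.24-fold, whereas Col1a2 did not pass the test. The summed level of the 10 genes was 21642 ± 1731 CPM in untreated and 21635 ± 892 CPM in TGFβ1-treated libraries (SD, n = 4 each), so the composition of the fibrillar collagen RNA moved while a difference in its sum was not detectable. Calls rest on edgeR's likelihood ratio test, with the false discovery rate (FDR) held under 0.05 by the Benjamini-Hochberg method over all 13818 genes tested. Among all genes tested, 75.6% were called in either direction, 37.6% as higher and 38.0% as lower, and the shares of 7 and 2 among 10 genes should be read against these values. DESeq2 called the same 9 genes, against 36.7% higher and 36.1% lower among all genes. A log2 fold change past 1 was reached by 5 genes upward, namely Col2a1, Col5a3, Col11a1, Col11a2 and Col27a1, and by none downward, against 10.9% and 6.56% of all genes. The median log2 fold change of the 10 genes was 0.92, against -0.01 for all genes tested. Col2a1 is counted in the 7 higher genes, in the 5 past 1 and in this median. It had enough counts to be tested through its treated libraries alone, so its call could only be upward. In bulk RNA, fewer cells of a type and less RNA per cell cannot be told apart.

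**Figure D1:**
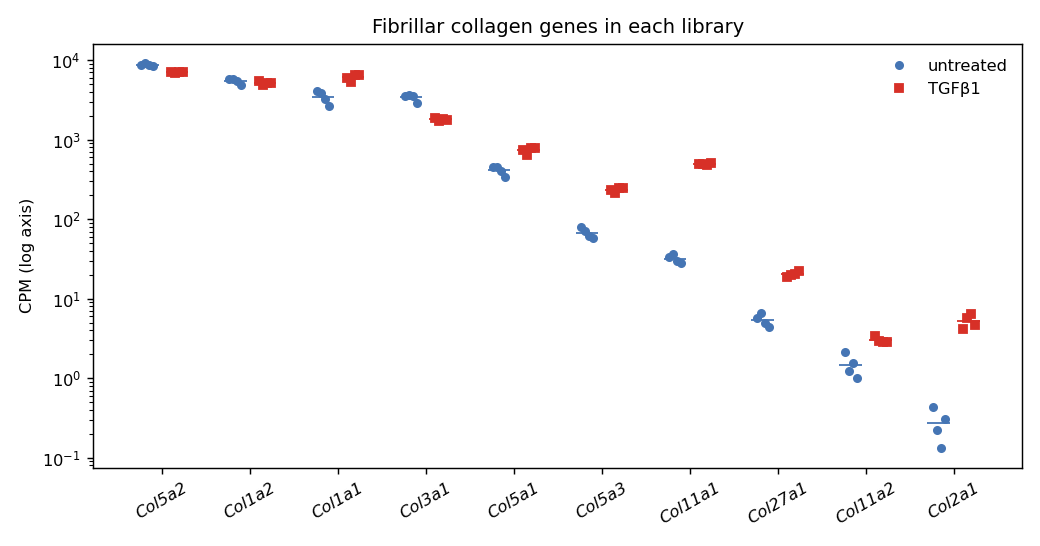
CPM of each fibrillar collagen gene in each of the 8 libraries, on a log axis; circles are untreated and squares TGFβ1-treated libraries, and horizontal lines are group means (n = 4 libraries per group). The groups overlap for Col1a2 alone, Col11a1 moves from 28.1 to 36.1 CPM up to 479 to 505 CPM, and Col3a1 and Col5a2 are lower in every treated library.

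The labelled cell type was compared with lists of marker genes. Of 13 endothelial and lymphatic markers, 4 had enough counts to be tested. The lymphatic regulator Prox1 had at most 2 counts in any library, the hyaluronan receptor Lyve1 at most 3, and the endothelial junction genes Pecam1 and Cdh5 at most 5 and 2. Tie1 and Ccl21a were at 0 in all 8 libraries. The lymphatic markers Pdpn and Flt4 were present at 342 ± 19.5 and 21.6 ± 1.23 CPM in untreated libraries (SD, n = 4), as was Kdr at 11.6 ± 0.548 CPM. Summed over the list, the level was 357 to 394 CPM in untreated and 360 to 370 CPM in treated libraries, with 1 gene lower, 2 higher and 1 not called. Most of this sum was Pdpn, the lower gene, at 313 ± 5.25 CPM after TGFβ1. Flt4 and Kdr were the 2 higher genes, at 29.3 ± 0.407 and 22.1 ± 0.761 CPM after TGFβ1. Of 12 fibroblast and mural markers, 11 were tested, with 8 higher and 3 lower, against 37.6% higher and 38.0% lower among all genes tested. The summed level of this list was 1469 to 1575 CPM in untreated and 2468 to 2566 CPM in treated libraries. The 3 lower genes were Pdgfra, from 160 ± 10.5 to 57.8 ± 3.91 CPM, Thy1, from 89.2 ± 2.87 to 42.4 ± 2.31 CPM, and Dcn, from 312 ± 11.7 to 83.0 ± 6.48 CPM (SD, n = 4). Most of the summed level came from the contractile genes Acta2 and Tagln, which rose from 264 ± 9.92 to 981 ± 38.4 CPM and from 591 ± 21.8 to 1174 ± 30.4 CPM. Postn, Fap and Pdgfrb also rose, with log2 fold changes of 1.24, 1.37 and 0.63, as did Myh11, Cspg4 and Des. Fap had 7 to 9 counts per untreated and 12 to 25 per treated library, and Myh11 had 2 to 11 and 16 to 23. Both had enough counts to be tested through the treated libraries alone. A call for Fap and Myh11 could therefore hardly be downward. The part of the marker lists in the collagen results was not tested.

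In untreated SV-LECs Col5a2, which encodes the alpha 2 chain of type V collagen, had the highest CPM of all genes in each of the 4 libraries. Col1a2 ranked between 4 and 5, Col3a1 between 6 and 8 and Col1a1 between 6 and 10. Levels of different genes were compared as CPM per kb of merged exons, the union of all exons annotated for a gene. On this scale Col5a2 stood at 913 ± 33.2, Col1a1 at 527 ± 93.1, Col1a2 at 442 ± 38.1, Col3a1 at 347 ± 34.9 and Col5a1 at 48.6 ± 6.74 (SD, n = 4). Below them were Col5a3 at 9.99 ± 1.48, Col11a1 at 2.51 ± 0.284, Col27a1 at 0.416 ± 0.0761, Col11a2 at 0.216 ± 0.0699 and Col2a1 at 0.0296 ± 0.0139 CPM per kb. The ranges of neighbours in this order did not overlap, except those of Col1a1 and Col1a2. The order among the 4 abundant genes depended on the length that was used. Merged exons come to 12426 bases for Col1a2 but its longest transcript to 5348 bases, whereas the same lengths for Col1a1 were 6563 and 5930 bases. Per kb of the longest transcript the order was Col5a2 at 1322 ± 48.0, Col1a2 at 1028 ± 88.5, Col3a1 at 612 ± 61.5 and Col1a1 at 583 ± 103, the last pair with overlapping ranges. Col5a2 was first and the order from Col5a1 down to Col2a1 was the same with either length.

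Sequence upstream of the start was examined for the 7 genes that matched the RefSeq promoter table (GRCm38.p6), each with 250 bases before and 50 bases after the annotated start. Col1a1, Col2a1 and Col5a2 were not matched. The 250 upstream bases are shown for Col3a1, the gene with the largest fall, for Col11a1, which had the highest likelihood ratio statistic of the 10 genes, and for Col5a1 and Col1a2, a chain that rose and a chain that was not called. All 4 lie on the plus strand, at chr1:45311288-45311537, chr3:114030290-114030539, chr2:27886175-27886424 and chr6:4505368-4505617. The windows of Col1a2 and Col27a1 lie inside the gene limits given below. Those limits come from the GENCODE annotation, which starts these 2 genes further upstream than the promoter table does. Capitals mark letters that match a searched motif on either strand, so that a match on the minus strand appears as its reverse complement. The core of the element bound by SMAD proteins was searched as CAGAC. A box bound by Sp1 and related factors was searched as GGGCGG. The element bound by the factor NF-Y was searched as CCAAT. The element that positions the basal transcription machinery was searched as TATAAA.
Col3a1: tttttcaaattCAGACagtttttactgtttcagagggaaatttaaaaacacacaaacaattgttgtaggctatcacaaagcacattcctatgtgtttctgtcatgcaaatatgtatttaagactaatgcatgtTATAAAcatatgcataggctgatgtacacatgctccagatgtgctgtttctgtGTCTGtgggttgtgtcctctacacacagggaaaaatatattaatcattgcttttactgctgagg
Col11a1: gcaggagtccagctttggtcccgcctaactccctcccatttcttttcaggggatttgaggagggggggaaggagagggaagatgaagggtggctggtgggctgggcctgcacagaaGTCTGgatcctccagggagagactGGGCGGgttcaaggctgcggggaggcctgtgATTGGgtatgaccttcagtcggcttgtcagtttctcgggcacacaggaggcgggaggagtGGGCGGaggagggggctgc
Col5a1: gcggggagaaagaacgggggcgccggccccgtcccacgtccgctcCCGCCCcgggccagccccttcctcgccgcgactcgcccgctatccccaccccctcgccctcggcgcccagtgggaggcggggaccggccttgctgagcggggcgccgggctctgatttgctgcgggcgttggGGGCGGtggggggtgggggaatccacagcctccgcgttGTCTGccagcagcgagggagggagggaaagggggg
Col1a2: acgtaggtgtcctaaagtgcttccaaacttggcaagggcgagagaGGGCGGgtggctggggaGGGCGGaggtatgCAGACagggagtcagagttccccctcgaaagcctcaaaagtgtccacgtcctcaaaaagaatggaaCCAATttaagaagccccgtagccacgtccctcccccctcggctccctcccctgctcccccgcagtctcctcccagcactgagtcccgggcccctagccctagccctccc

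In the windows of 300 bases CAGAC occurred in 5 of 7 collagen promoters and in 49.6% of all 32851 promoters in the table, GGGCGG in 6 of 7 and in 35.7%, CCAAT in 3 of 7 and in 37.4%, and TATAAA in 2 of 7 and in 13.6%. Col3a1 was the promoter of the 7 without GGGCGG, and its window had a GC content of 37.7%, against 59.0% to 75.0% in the other 6. CAGAC was found in the windows of Col3a1, which fell, of Col1a2, which was not called, and of Col5a1, Col11a1 and Col27a1, which rose. These matches describe letters only and show no binding.

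The type I genes responded unequally. Col1a1 (ENSMUSG00000001506, chromosome 11, 94936224 to 94953042 of GRCm38) had 4045, 3826, 3288 and 2677 CPM in the untreated libraries and 6013, 5325, 6429 and 6463 CPM in the treated libraries. Every treated library lay above every untreated library, by at least 1280 CPM. The difference on the log2 scale was 0.81 (standard error 0.104). edgeR gave an FDR of 3.84e-14 by likelihood ratio and 4.98e-06 by quasi-likelihood. Col1a2 (ENSMUSG00000029661, chromosome 6, 4504814 to 4541544) had 5820, 5818, 5535 and 4816 CPM in untreated and 5448, 4907, 5237 and 5186 CPM in treated libraries. These groups overlapped, and the log2 fold change of -0.08 (95% interval -0.20 to 0.04) was not significant (FDR = 0.206 from edgeR's likelihood ratio test). Col1a2 passed the threshold as lower with scaling to total counts (log2 change -0.15, FDR = 0.0163 from edgeR) and when untreated replicate 4 was left out (log2 fold change -0.14, FDR = 0.00278 from edgeR).

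Col3a1 (ENSMUSG00000026043, chromosome 1, 45311538 to 45349706), the only chain of type III collagen, had 3560, 3657, 3511 and 2902 CPM in untreated libraries and 1878, 1712, 1842 and 1788 CPM in treated libraries. The groups were separated by 1024 CPM. The log2 fold change was -0.92 (standard error 0.0651), with FDRs of 1.95e-43 and 4.87e-09 from edgeR's likelihood ratio and quasi-likelihood tests. Among the 13818 genes tested, 1056 had a lower log2 fold change than Col3a1.

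The 3 type V genes did not move together. Col5a2 (ENSMUSG00000026042), which lies next to Col3a1 on chromosome 1 on the opposite strand (45374321 to 45503282), had 8696, 9146, 8817 and 8376 CPM before and 7164, 6965, 7121 and 7085 CPM after TGFβ1. All treated libraries were lower, and the log2 fold change was -0.31 (standard error 0.0397, edgeR FDR = 4.04e-14). After treatment Col5a2 ranked 2 in CPM in each library. Col5a1 (ENSMUSG00000026837, chromosome 2, 27886425 to 28039514), the chain present in most type V molecules, rose from 454, 459, 400.5 and 337 CPM to 738, 648, 776 and 781 CPM. The log2 change of Col5a1 was 0.83 (standard error 0.0880, edgeR FDR = 1.72e-20). Col5a3 (ENSMUSG00000004098, chromosome 9, 20770050 to 20815067), a further chain of narrower distribution, rose from 80.4, 71.6, 62.4 and 57.8 CPM to 234, 215, 245 and 249 CPM. Its log2 fold change was 1.79 (standard error 0.0845, edgeR FDR = 5.81e-94).

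Col11a1 (ENSMUSG00000027966, chromosome 3, 114030540 to 114220718), the alpha 1 chain of type XI collagen, had 33.7, 36.1, 29.8 and 28.1 CPM in untreated libraries and 493, 500.3, 479 and 505 CPM in treated libraries. The 4 treated libraries were within a narrow range and lay at least 443 CPM above the untreated ones. The likelihood ratio statistic was 3643, the log2 fold change 3.95 (standard error 0.0614), and the FDR from edgeR's quasi-likelihood test 6.26e-15. Of all genes tested, 102 had a larger log2 fold change. By CPM Col11a1 ranked between 6247 and 7035 before and between 225 and 251 after treatment. Col11a2 (ENSMUSG00000024330, chromosome 17, 34039437 to 34066685), which encodes the alpha 2 chain of type XI, was far lower, with 20 to 44 counts per untreated and 58 to 73 counts per treated library. It moved from 2.12, 1.24, 1.57 and 1.01 CPM to 3.35, 2.92, 2.85 and 2.83 CPM (log2 change 1.01, standard error 0.184, edgeR FDR = 6.63e-08). The gap between its groups was 0.713 CPM.

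Col2a1 (ENSMUSG00000022483, chromosome 15, 97975602 to 98004695), whose product is also the partner of Col11a1 and Col11a2 chains in cartilage, had 9, 6, 3 and 6 counts in untreated and 76, 116, 131 and 122 counts in treated libraries. This was 0.434, 0.225, 0.131 and 0.304 CPM before and 4.11, 5.65, 6.45 and 4.74 CPM after TGFβ1, with a floor of 3 counts at 0.113 to 0.162 CPM per library. The log2 fold change was 4.26 (standard error 0.329, edgeR FDR = 6.44e-62), and 3.89 with a prior count of 2. Even after the rise Col2a1 made up 0.0243% ± 0.0050 of the counts of the 10 genes (SD, n = 4). Of 10 cartilage markers, 4 were tested, with 3 higher and 1 lower, against 37.6% higher and 38.0% lower among all genes tested. The summed level of this list was 5.63 to 8.00 CPM in untreated and 11.4 to 12.5 CPM in treated libraries. Matn3, a cartilage matrix protein, had most of the untreated sum and fell from 5.81 ± 0.962 to 2.28 ± 0.263 CPM (SD, n = 4; log2 change -1.35). The 3 higher genes were Acan, Comp and Col10a1. Comp and Col10a1 had 0 to 4 and 1 to 5 counts per untreated library. These 3 genes, and Col2a1 itself, passed the filter on low counts through the treated libraries alone. A call for them could therefore only be upward. Acan, the large proteoglycan of cartilage, went from 0 to 2 counts per untreated library to 101 to 144 per treated library. Of the markers not tested, the chondrocyte regulator Sox9 had 6 to 16 counts across all libraries, Col9a1 at most 1 and Hapln1 0. Matn1 and Col9a2, also not tested, had 0 to 1 and 0 to 5 counts per untreated library. They had 9 to 15 and 8 to 16 counts per treated library. The part of these markers in the collagen result was not tested.

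Col27a1 (ENSMUSG00000045672, chromosome 4, 63214004 to 63334991) rose from 5.78, 6.61, 4.89 and 4.36 CPM to 18.5, 19.7, 20.4 and 22.4 CPM. Its log2 change was 1.89 (standard error 0.115, edgeR FDR = 5.71e-61). Its closest relative Col24a1, which was not among the 10 genes, had 13 to 23 counts per untreated and 8 to 16 per treated library (log2 change -0.63, standard error 0.283, edgeR FDR = 0.0302).

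**Figure D2:**
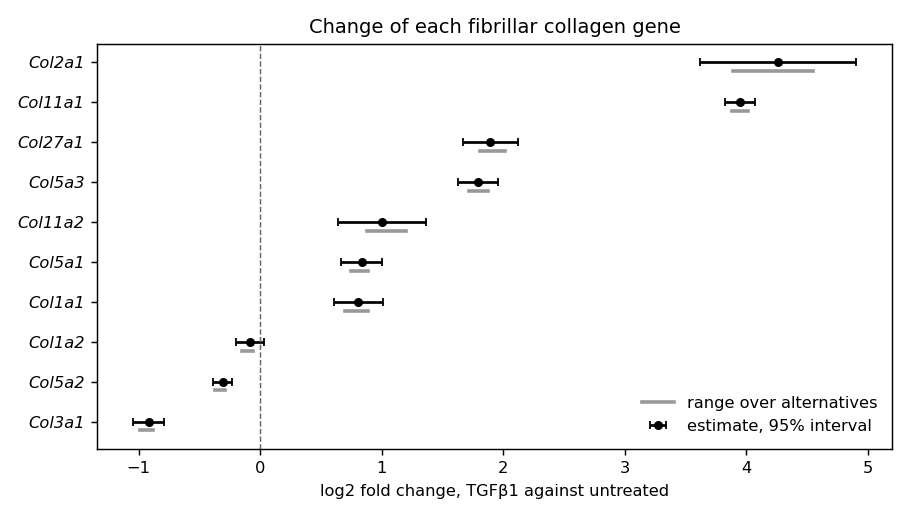
Log2 fold change of each fibrillar collagen gene, TGFβ1-treated against untreated SV-LECs; points are edgeR estimates with 95% intervals, and grey lines give the range over 16 alternative analyses. Col3a1 and Col5a2 lie below 0 with every setting, Col1a2 has an interval that includes 0, and the other 7 genes lie above 0.

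By clade, 4 of 4 clade B genes were higher, as was Col27a1, the 1 clade C gene among the 10. Col24a1, its closest relative outside the 10, was called lower (log2 change -0.63, edgeR FDR = 0.0302). Of the 5 clade A genes 2 were higher, 2 lower and 1 not called. These counts stand against 37.6% called higher and 38.0% called lower among all genes tested. The groups did not overlap for 9 of the 10 genes, against 69.8% of all genes tested (34.7% higher and 35.1% lower). For each of these 9 genes an exact two-sided permutation test gave p = 0.0286, the smallest value that 4 libraries against 4 allow. Col2a1 was tested through its treated libraries alone, so its separation and this p-value were fixed by the filter on low counts. In the untreated group, replicate 4 had the lowest CPM for 9 of the 10 genes. In the treated group, replicate 2 had the lowest CPM for 6. Without untreated replicate 4 the log2 fold changes of Col1a1 and Col3a1 were 0.70 and -0.99. Reads of these genes were nearly free of sequence shared with other genes, since at most 0.825% of the stretches of read length in any member occurred elsewhere in the annotated transcripts, the maximum being that of Col5a1.

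Chain ratios were formed within each library, so that they do not depend on how libraries were scaled. Of 10 ratios chosen, 9 were tested, and 8 of the 9 differed between the groups without overlap (exact two-sided permutation test, p = 0.0286, adjusted p = 0.0321 by Benjamini-Hochberg over the 9 ratios). Each ratio restates the difference between the log2 fold changes of its 2 genes. How often ratios of other gene pairs separate the groups was not determined. The count ratio of Col1a1 to Col1a2 was 0.695, 0.658, 0.594 and 0.556 in untreated and 1.10, 1.09, 1.23 and 1.25 in treated libraries, a 1.87-fold rise. Per kb of merged exons this was 1.18 ± 0.118 before and 2.21 ± 0.157 after TGFβ1, and per kb of the longest transcript 0.564 ± 0.0563 and 1.05 ± 0.0748 (SD, n = 4). The rise does not depend on length, but whether Col1a1 exceeded Col1a2 does, in untreated and in treated cells. With the longest transcript the treated libraries ranged from 0.979 to 1.12, on both sides of an equal level. The ratio of Col3a1 to Col1a1 fell from 0.997 ± 0.0966 to 0.299 ± 0.0211 by counts (SD, n = 4), a 3.33-fold fall.

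The ratio of Col5a1 to Col1a1 was the one that did not differ. It was 0.112, 0.120, 0.122 and 0.126 in untreated and 0.123, 0.122, 0.121 and 0.121 in treated libraries, which overlapped (exact two-sided permutation test, p = 0.714, also after adjustment). The fold change of this ratio was 1.01, with a 97.1% interval of 0.960 to 1.09 from the differences between all pairs of libraries. Col5a1 and Col1a1 had log2 fold changes of 0.83 and 0.81. Relative to Col5a2, in contrast, Col5a1 rose from 0.0470 ± 0.0054 to 0.104 ± 0.0078 by counts (SD, n = 4), 2.22-fold, and Col5a2 remained the more abundant chain in every library. Per kb of merged exons the ratio of Col5a1 to Col5a2 was 0.0531 ± 0.0061 before and 0.117 ± 0.0089 after treatment, and with the longest transcript 0.0370 ± 0.0042 and 0.0818 ± 0.0062. Col5a3 relative to Col5a1 went from 0.165 ± 0.0109 to 0.321 ± 0.0070 by counts, 1.95-fold.

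Col11a1 rose relative to Col5a1, Col1a1 and Col11a2. Its count ratio to Col5a1, with which it can share molecules, was 0.0741, 0.0786, 0.0744 and 0.0836 in untreated and 0.668, 0.772, 0.617 and 0.647 in treated libraries, 8.68-fold higher. Per kb of merged exons this brought Col11a1 from 0.0518 ± 0.0030 to 0.450 ± 0.0447 of the Col5a1 level (SD, n = 4), and from 0.0852 ± 0.0049 to 0.741 ± 0.0735 with the longest transcript. The ratio to Col1a1 rose 8.80-fold, and the ratio to Col11a2 rose 7.46-fold, from 22.9 ± 6.51 to 166 ± 13.5 by counts. The ratio of Col27a1 to Col1a1 rose 2.14-fold. The ratio of Col2a1 to Col11a1 was not tested because of the low counts of Col2a1, with 24 against 2897 counts in all untreated and 445 against 42154 in all treated libraries. These pooled ratios were 0.00828 and 0.0106, and the ranges of the ratio over libraries overlapped.

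**Figure D3:**
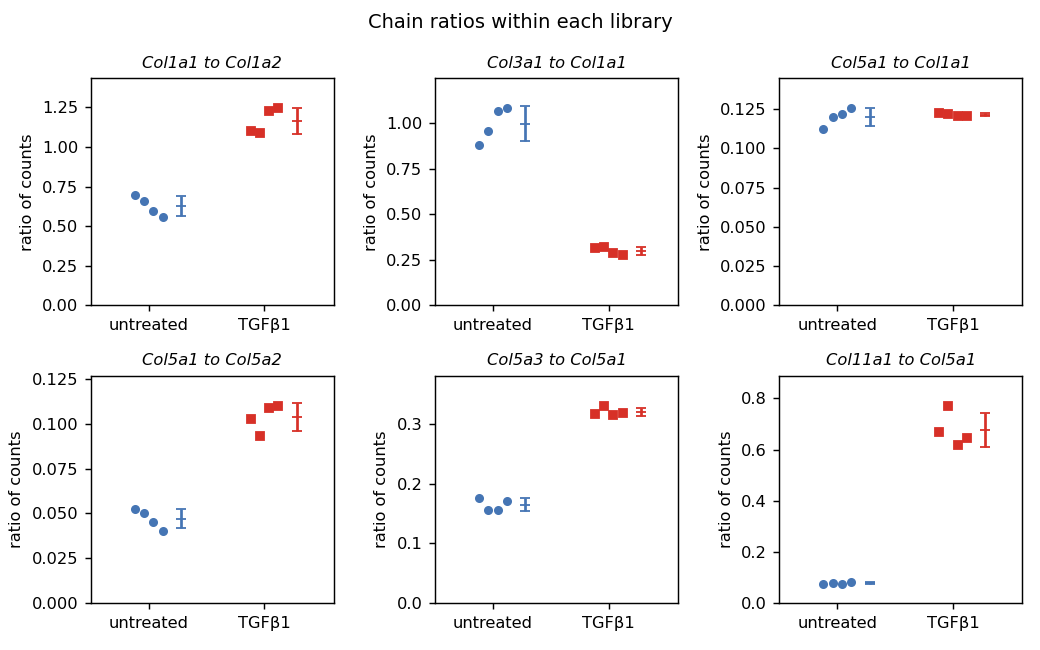
Ratio of counts of a pair of fibrillar collagen genes in each of the 8 libraries, with mean and SD beside the points (n = 4 libraries per group) and axes starting at 0. Col1a1 to Col1a2 rises from 0.556 to 0.695 up to 1.09 to 1.25, Col3a1 to Col1a1 falls, and Col5a1 to Col1a1 stays between 0.112 and 0.126 in both groups.

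The 10 genes took 2.21% ± 0.170 of all counts in untreated and 2.11% ± 0.0911 in treated libraries (SD, n = 4; exact two-sided permutation test, p = 0.314). For the summed CPM the difference was -7.12, with a 97.1% interval from -2722 to 2960 CPM (exact two-sided permutation test, p = 1.00). Within this sum the shares moved. Of the counts of the 10 genes, Col1a1 took 15.9% ± 1.69 before and 27.96% ± 1.44 after TGFβ1, Col3a1 15.7% ± 0.461 and 8.35% ± 0.190, Col5a2 40.6% ± 2.25 and 32.8% ± 1.05, and Col1a2 25.4% ± 0.258 and 24.01% ± 0.585 (SD, n = 4). The clade B genes together went from 2.37% ± 0.147 to 6.79% ± 0.13, within which Col11a1 went from 0.147% ± 0.0079 to 2.29% ± 0.128. Per kb of merged exons Col1a1 was at 923 ± 80.7 after treatment, above Col5a2 at 739 ± 8.92, Col1a2 at 418 ± 17.9 and Col3a1 at 184 ± 7.34 CPM per kb, with no overlap between neighbours. With the longest transcript Col5a2 at 1069 ± 12.9, Col1a1 at 1021 ± 89.3 and Col1a2 at 971 ± 41.6 overlapped with their neighbours in the order. Col11a1 at 38.8 ± 0.886 CPM per kb of merged exons had moved past Col5a3 at 34.7 ± 2.28, also with the longest transcript (64.5 ± 1.47 and 38.6 ± 2.54 CPM per kb).

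**Figure D4:**
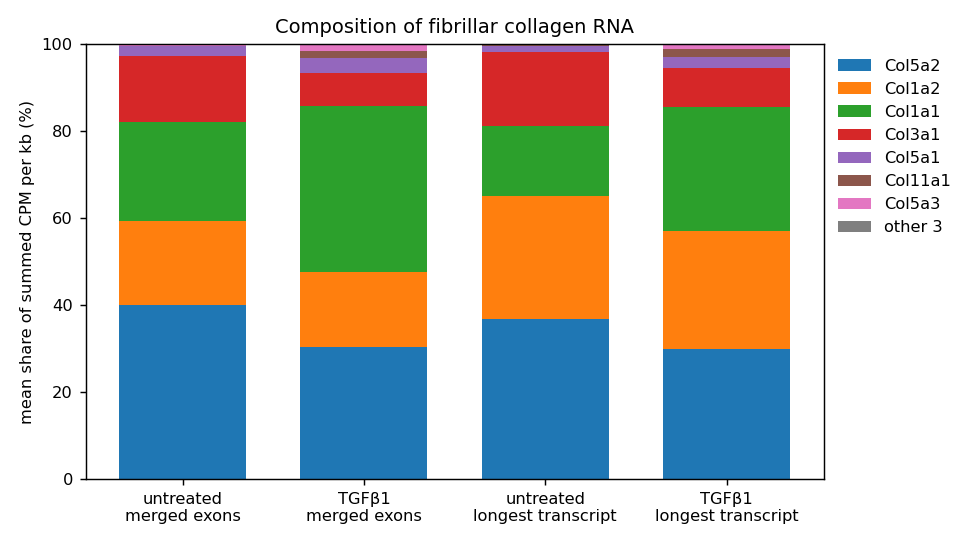
Mean share of each gene in the summed CPM per kb of the 10 fibrillar collagen genes in untreated and TGFβ1-treated libraries (n = 4 each), with lengths from merged exons (left pair of bars) or the longest transcript (right pair). Col1a1 widens from 22.9% to 38.0% with merged exons and from 16.1% to 28.5% with the longest transcript, and Col3a1 narrows in both.

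Other genes of the collagen pathway, from regulators of collagen genes to enzymes of fibril assembly, receptors and collagenases, were examined in 9 lists with 92 genes in all, of which 74 were tested. In the same fit 47 were higher and 17 lower, with a median log2 fold change of 0.34, against 37.6% higher and 38.0% lower among all genes tested. In the endoplasmic reticulum, 11 of 17 tested genes of procollagen folding and hydroxylation were higher and 5 lower, with a median of 0.24. Fkbp14, a prolyl isomerase, and Plod2, a lysyl hydroxylase, rose by 1.44 and 1.07 on the log2 scale, and P4ha2, a prolyl hydroxylase subunit, and Plod1 had log2 fold changes of -0.27 and -0.22. Among 8 genes of procollagen export, 5 were higher and 3 lower (median 0.36). The transcription factors Creb3l2 and Creb3l1, which serve the secretory load of matrix cells, rose by 0.99 and 0.61, and Klhl12 and Mia2 had log2 fold changes of -0.49 and -0.19.

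Propeptides are cleaved off before fibrils form. All 7 tested genes of the 10 on this list were higher (median 1.25), against 37.6% of all genes tested. Log2 fold changes were 2.53 for Pcolce2, an enhancer of the C-proteinase, and 1.95 for Bmp1, the C-proteinase itself. Bmp1 went from 232 ± 9.10 to 898 ± 19.0 CPM (SD, n = 4). Of the 5 lysyl oxidase genes, whose products cross-link fibrils, 3 were higher and none lower (median 0.87). Loxl3 and Loxl4 rose by 1.71 and 1.38, and the abundant Lox was not called at 2283 ± 118 and 2353 ± 133 CPM (log2 fold change 0.04). All 4 tested genes of the 10 fibril-associated collagens were higher (median 1.46), led by Col9a3 and Col20a1 with log2 fold changes of 2.35 and 1.85. Col21a1 was not analysed here.

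Of 11 proteoglycans and glycoproteins that bind fibrils, 8 were tested, with 3 higher and 2 lower (median 0.29). Here and for the lists that follow, 37.6% of all genes tested were called higher and 38.0% lower. Dcn, which encodes decorin, fell from 312 ± 11.7 to 83.0 ± 6.48 CPM (SD, n = 4; log2 fold change -1.91), Fmod had a log2 fold change of -0.20, and Bgn, which encodes biglycan, rose by 0.66. Comp, which is also on the cartilage list, had 0 to 4 counts per untreated and 11 to 27 per treated library. It passed the filter on low counts through the treated libraries alone. Among 8 tested genes of 10 collagen receptors and uptake genes, 5 were higher and 3 lower (median 0.40). Itga2 and Itga11, alpha subunits of collagen-binding integrins, rose, the first from 0 to 6 counts per untreated library to 87 to 134 per treated library and the second by 2.29 on the log2 scale. Itga2 also passed the filter through the treated libraries alone. Itga1, another such subunit, and the collagen receptor kinase Ddr2 fell by 1.18 and 0.64. Of 6 collagenase genes 5 were tested, with 3 higher and none lower (median 0.29), and Mmp14 and Ctsk rose by 1.17 and 0.69. Among 14 regulators of collagen genes 12 were tested, with 6 higher and 4 lower (median 0.13). Smad7 and Smad3 rose by 0.89 and 0.71, and Cebpb and Smad4 fell by 0.77 and 0.43 on the log2 scale.

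**Figure D5:**
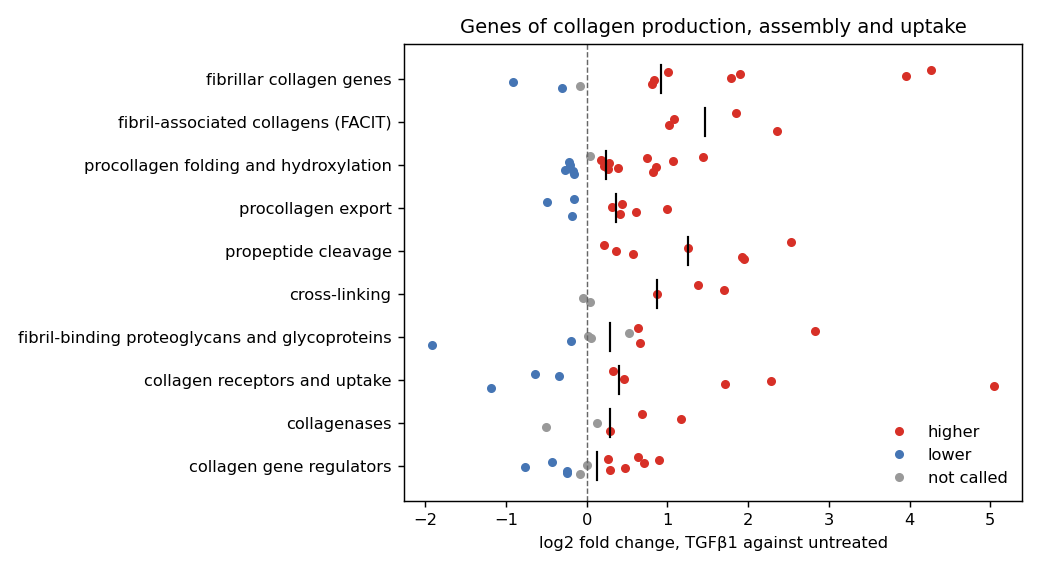
Log2 fold change of each tested gene in the fibrillar collagen group and in 9 lists of genes of collagen production, assembly and uptake; colours give the call by edgeR's likelihood ratio test and vertical bars the list median. All tested genes of propeptide cleavage (7) and of fibril-associated collagens (4) lie above 0, whereas folding, export, receptor and regulator lists hold genes on both sides.

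The genes with the pattern most like that of a collagen were sought by the root mean square distance of log2 CPM, centred on each gene's mean, over the 8 libraries. For Col1a1 they were Inava, Celf4 and Phlda1, at distances of 0.0618, 0.0796 and 0.0860. For Col3a1 they were Adamts1, Tle1 and Flrt3, at 0.0414, 0.0566 and 0.0611, and for Col11a1 they were Svop, Nat8l and Fat2, at 0.138, 0.139 and 0.164. The distance used log2 CPM with a prior count of 2, which compresses low genes, and Fat2 had a fitted log2 change of 7.89 without that prior, against 3.95 for Col11a1. As the libraries form 2 groups, a small distance mostly reflects a like difference between the groups. Inava, Celf4 and Phlda1 had log2 fold changes of 0.92, 0.82 and 0.83, against 0.81 for Col1a1. Adamts1, Tle1 and Flrt3 had -0.90, -0.92 and -0.90, against -0.92 for Col3a1, and Svop and Nat8l had 3.83 and 4.07.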

How the data were processed

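The authors prepared stranded poly(A) libraries, sequenced single-end reads of 75 bases, used GRCm38 for mapping, and deposited gene-level read counts that were not normalized. The submitters' processing notes name bcl2fastq 2.20.0.422, STAR 2.7.3a and featureCounts 1.5.1. The annotation release and the use of strand in counting are not given in the sources used here. Groups follow the sample labels.

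The analysis used edgeR 4.0.16 under R 4.3.3: filterByExpr, TMM, estimateDisp, glmFit and glmLRT, which the study names, with Benjamini-Hochberg adjustment over 13818 genes. CPM refer to TMM-normalized library sizes, with 3 counts at 0.113 to 0.162 CPM, and floors and intervals of counts cover counting error only. Standard errors come from the fitted negative binomial information, and 95% intervals are normal. Lengths and positions came from GENCODE M21, which matched 55230 genes. Ratios needed at least 10 counts in every library for both genes and were compared with an exact two-sided permutation test. Pipelines were tested on simulated data. Alternatives were the quasi-likelihood test, DESeq2 1.42.0, other scalings, filters, prior count, thresholds and lengths, a replicate block, and each library left out.

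Named genes were the 10 collagens, at most 2 genes in each direction with the largest log2 fold change among called genes of each list, markers, and the 3 genes most alike in pattern to each of Col1a1, Col3a1 and Col11a1. A few further list genes and Col24a1 were named after their values were seen. The collagens and lists were chosen with earlier results of these data known.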

Additional observations from a re-analysis of the deposited data

Results flagged for a closer look

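Samples far from the others in their group of 4 were sought with Dixon's criterion in 40 groups of values, of which chance flags about 1 in 20. In the TGFβ1-treated group the highest library for Col11a2, replicate 1, had 3.35 CPM, against 2.92 CPM for the nearest other library. The lowest treated library for the summed CPM of the 10 collagens, replicate 2, had 20300.1 CPM, against 21994 CPM for the nearest. It was the lowest treated library for 6 of the 10 genes.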

How the results depend on the processing

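The counts of 7 collagens called higher and 2 lower held under all alternatives, except that Col1a2 joined the lower genes with scaling to total counts and without untreated replicate 4. The direction of the difference in summed CPM, which passed no test, turned when single libraries were left out (range -821 to 453 CPM). It also turned per kb with the length of the longest transcript, at -29.9 CPM per kb against 134.5 with merged exons. The log2 ratio of Col5a1 to Col1a1 changed between the groups by -0.011 to 0.043 when single libraries were left out. With the longest transcript the log2 level ratio in untreated cells was -0.83 for Col1a1 to Col1a2 and 0.088 for Col3a1 to Col1a1, both with the opposite sign to that with merged exons. Without a filter on low counts 6 cartilage markers were called higher, and 4 endothelial markers higher and 2 lower. Without untreated replicate 2 or TGFβ1 replicate 2, 1 fibril-binding gene was called lower in place of 2.

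Samples with the same replicate number did not deviate together (correlations from -0.193 to -0.0336), so the numbers were not used as pairs. With a replicate block 10152 genes were called in place of 10449, and 7 collagens were again higher and 2 lower. For the chain ratios neither the block nor leaving out 1 library allows an exact two-sided p under 0.05, so neither bears on their calls. Counts of 3 to 9 per untreated library limit the precision for Col2a1.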
